A study of Mus musculus with 10 samples.

Results

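The 9 genes described here encode enzymes that build triglyceride from glycerol-3-phosphate or monoacylglycerol: Gpam, Gpat4, Agpat2, Agpat3, Lpin1, Lpin2, Dgat1, Dgat2 and Mogat1. They were chosen by gene symbol from the 29657 genes of the deposited table, all 9 were found, and 8 passed the filter on low values, with Mogat1 below it. The profiles came from 10 whole-liver samples of C57BL/6 mice, all kept for 8 weeks on CDAHFD, a high-fat diet that lacks choline and supplies defined amino acids, used as a model of steatohepatitis. Of these, 5 samples came from mice given AAV8-TBG-galectin-3 intravenously, which the labels name as a knockdown of galectin-3 in hepatocytes, and 5 from mice given AAV8-NC, a negative control virus, which are labelled WT. TBG is a promoter active in hepatocytes, so other liver cells were not aimed at, and the sources used here give neither the insert of the vector nor the sex and age of the mice. Whether each sample is a separate mouse is not stated outright, so p-values measure the spread between these samples. The transcript of galectin-3, Lgals3, held 67.4, 90.8, 85.2, 85.6 and 41.9 FPKM in the samples labelled knockdown, against 105.3, 73.9, 61.6, 71.0 and 42.2 FPKM in the control samples (limma adjusted p = 0.856, log2 fold change 0.08 with a 95% confidence interval of -0.47 to 0.62). A decrease was therefore not detected in whole liver, and the first group is called the labelled knockdown livers throughout.

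In the classical route, a glycerol-3-phosphate acyltransferase adds a first fatty acid to glycerol-3-phosphate, and an acylglycerol-phosphate acyltransferase adds another to give phosphatidic acid. A lipin removes the phosphate to leave diacylglycerol, and a diacylglycerol acyltransferase adds the last fatty acid. A monoacylglycerol acyltransferase offers a way to diacylglycerol that bypasses phosphatidic acid. The liver uses these steps to store fatty acids in lipid droplets and to load very-low-density lipoprotein, and phosphatidic acid and diacylglycerol also feed the synthesis of phospholipids.

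Values are FPKM (fragments scaled for the length of the transcript and for sequencing depth), as the authors deposited them, with 21653 to 23079 genes above 0 per labelled knockdown library and 22153 to 22897 per control library. The groups were compared with limma on log2(FPKM + 1) over the 13471 genes that reached 0.5 FPKM in 5 or more libraries, and a change was called at an adjusted p under 0.05. Of all tested genes, 960 (7.13%) rose and 1300 (9.65%) fell in the labelled knockdown livers; with median-of-ratios scaling the split was 1240 higher and 1060 lower. The libraries also differed with transcript length. For each doubling of length, log2 values in a library shifted against the mean over libraries by -0.059 to -0.0070 in the labelled knockdown livers and by 0.019 to 0.046 in the control livers. This trend moved with the groups, so the changes of Agpat2 and Gpat4 below are also given with the trend removed. The batch label reads 8 weeks for all 10 livers, and the labels name no litter or cage.

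Of the 8 tested enzymes, Agpat2 rose, Gpat4 fell, and Gpam, Agpat3, Lpin1, Lpin2, Dgat1 and Dgat2 did not pass the test. That made 2 of 8 called, or 25.0%, against 16.8% of all tested genes. The count of all genes depended on single libraries while that of the enzymes stayed at 1 higher and 1 lower. It fell by over 1.5 times, to 492 higher and 533 lower without control 2 and to 440 higher and 615 lower without control 3. The counts were 623 and 791 without control 4, and 594 and 826 without labelled knockdown 1. They were 603 and 751 without labelled knockdown 3, and 592 and 712 without labelled knockdown 5. Without labelled knockdown 2 only the lower count fell that far, to 830, with 781 higher. With 8 enzymes tested, nothing is read from the share of them that changed. The median log2 fold change was -0.0073 over the 8 enzymes and -0.035 over all tested genes. For the same 2 enzymes the groups did not overlap, which held for 13.1% of all tested genes. Leaving out 1 library at a time kept both calls in 10 of 10 fits, with limma adjusted p of up to 0.0423 for Agpat2 and 0.0466 for Gpat4.

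**Figure D1:**
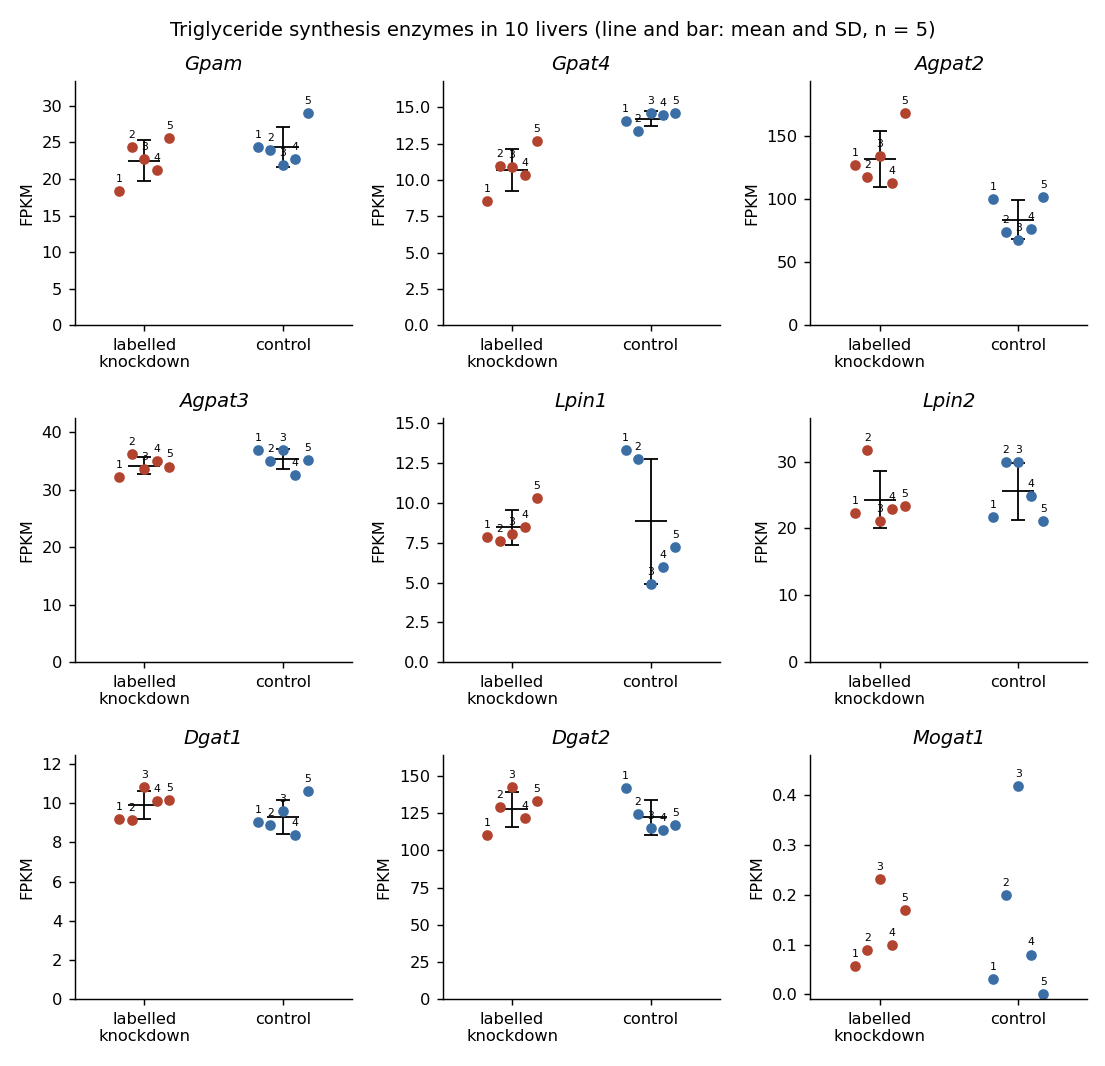
Each panel plots the FPKM of 1 enzyme in the 5 labelled knockdown livers (left, red) and the 5 control livers (right, blue), with the replicate number above each point and the mean and SD as a line and bar, except for Mogat1, which is listed at 0 in 1 library. Agpat2 lies at 113 to 169 FPKM in the labelled knockdown livers and at 67.6 to 102 FPKM in the control livers, Gpat4 at 8.57 to 12.7 FPKM in the labelled knockdown livers and at 13.3 to 14.6 FPKM in the control livers, and the groups overlap for the other enzymes.

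The first step is carried out by Gpam, the acyltransferase of the outer mitochondrial membrane, and by Gpat4, an acyltransferase of the endoplasmic reticulum. Gpat4 (ENSMUSG00000031545; chromosome 8, 23171265 to 23208346, minus strand, GRCm38 in GENCODE M21) held 8.57, 10.9, 10.9, 10.4 and 12.7 FPKM in labelled knockdown livers 1 to 5, against 14.1, 13.3, 14.6, 14.5 and 14.6 FPKM in control livers 1 to 5. Every labelled knockdown liver lay below every control liver, and the labelled knockdown livers were the more spread of the groups, with a coefficient of variation of 13.8% against 3.82%. Gpat4 averaged 10.7 ± 1.48 FPKM in the labelled knockdown livers and 14.2 ± 0.544 FPKM in the control livers (SD, n = 5 each; log2 fold change -0.39, SE 0.090, limma adjusted p = 0.0183), which is 0.763-fold with a 95% confidence interval of 0.666 to 0.874. With the length trend taken out, the log2 fold change was -0.31 and the limma adjusted p 0.0571, so the call ended; the longest annotated transcript of Gpat4 has 5518 bases. In the authors' deposited table the ratio of means was 0.751 with a q-value of 0.0626.

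Gpam (chromosome 19) held 18.4, 24.3, 22.8, 21.2 and 25.6 FPKM in labelled knockdown livers 1 to 5, against 24.3, 23.98, 21.9, 22.7 and 29.1 FPKM in control livers 1 to 5. The groups overlapped, with 3 labelled knockdown livers inside the control range and control 5 the highest of all. Its log2 fold change was -0.12 with a 95% confidence interval of -0.34 to 0.11 (limma adjusted p = 0.461), or 0.790-fold to 1.08-fold. Whether Gpam and Gpat4 changed unequally was asked within each library, as the difference in log2(FPKM + 1) of Gpam minus Gpat4. That difference averaged 1.01 ± 0.050 in the labelled knockdown livers and 0.73 ± 0.16 in the control livers, with no overlap (exact two-sided permutation p = 0.00794, the smallest that 5 livers a group allow; 0.0159 adjusted over the 4 pairs of enzymes compared). It was 0.28 larger in the labelled knockdown livers. With the length trend removed, a setting chosen for the pairs after seeing the data, it was also 0.28 larger there. The longest transcript of Gpam has 6172 bases, close to that of Gpat4. Gpam thus made up 67.8 ± 0.830% of the summed FPKM of this pair in the labelled knockdown livers and 63.0 ± 2.62% in the control livers. The sum itself was 27.0 to 38.3 FPKM in the labelled knockdown livers and 36.5 to 43.7 FPKM in the control livers.

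Among the 9 enzymes, Agpat2 and Agpat3, enzymes of the endoplasmic reticulum that make phosphatidic acid, served the next step. Their relatives Agpat1, Agpat4 and Agpat5 did not pass the test (limma adjusted p = 0.960, 0.947 and 0.731). Agpat1 averaged 5.80 FPKM in the labelled knockdown livers and 5.82 FPKM in the control livers. Loss of AGPAT2 in humans causes a congenital lack of fat tissue with fatty liver. Agpat2 (ENSMUSG00000026922; chromosome 2, 26593057 to 26604417, minus strand, GRCm38 in GENCODE M21) was the one enzyme of the 9 that rose, and Agpat3 (chromosome 10, 78269178 to 78352489, minus strand) did not pass the test. Windows of 300 bases around a RefSeq start of each are shown as a description. Their link to the change was not tested. They are RefSeq sequences of build GRCm38.p6, written 5′ to 3′ on the gene's strand, at chr2:26604368-26604667 for Agpat2 and chr10:78351651-78351950 for Agpat3, with GC boxes (GGGCGG, searched on both strands) in capitals.
Agpat2 start window: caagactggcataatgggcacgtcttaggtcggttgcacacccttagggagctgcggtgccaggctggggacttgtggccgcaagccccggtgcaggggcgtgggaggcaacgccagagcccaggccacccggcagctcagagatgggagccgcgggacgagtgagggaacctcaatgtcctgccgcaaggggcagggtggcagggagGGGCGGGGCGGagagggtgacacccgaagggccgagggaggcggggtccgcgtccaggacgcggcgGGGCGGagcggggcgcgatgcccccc
Agpat3 start window: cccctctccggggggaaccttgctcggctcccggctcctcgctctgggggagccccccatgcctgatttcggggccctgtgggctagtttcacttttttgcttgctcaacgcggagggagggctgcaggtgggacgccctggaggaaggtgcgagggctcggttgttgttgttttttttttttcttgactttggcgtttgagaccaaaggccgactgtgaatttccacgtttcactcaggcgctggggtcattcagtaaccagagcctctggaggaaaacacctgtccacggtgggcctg
The Agpat3 window lies inside the gene span above, at 1 of several starts. Of its GENCODE transcripts, 4 hold the last 30 bases of the window. The authors' deposited table lists 12 transcripts for Agpat3, which is a separate count. The Agpat2 window held 3 GC boxes, of which a pair upstream of the start overlap by 1 base, and the Agpat3 window held 0; 35.7% of all 32851 windows of this length in the table hold at least 1. GC content was 72.0% in the Agpat2 window and 59.0% in the Agpat3 window. Neither window held an E-box (CACGTG, in 7.15% of all windows), a sterol regulatory element (TCACNCCAC, in 1.24%), a CCAAT box (CCAAT, in 37.4%) or a TATA box (TATAAA, in 13.6%), on either strand. GC boxes also occurred in start windows of enzymes that did not pass the test. The windows of Lpin2 held 2, 1 and 0, and those of Gpam 0 and 1. The windows of Lpin1 and of Mogat1, which was not tested with the rest, held 0. For Gpat4, Dgat1 and Dgat2 no window was available, so the called enzyme Gpat4 could not be compared. These matches describe letters only, and binding was not measured.

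Agpat2 held 127, 118, 134, 113 and 169 FPKM in labelled knockdown livers 1 to 5, against 100, 73.9, 67.6, 76.2 and 102 FPKM in control livers 1 to 5. The lowest labelled knockdown liver stood above the highest control liver, and within the control group livers 1 and 5 stood above the other three. Agpat2 averaged 132 ± 22.0 FPKM in the labelled knockdown livers and 83.9 ± 15.8 FPKM in the control livers (SD, n = 5 each). This was a log2 fold change of 0.65, SE 0.14, at a limma adjusted p of 0.0154, or a 1.57-fold difference with a 95% confidence interval of 1.27 to 1.95. With the length trend removed the log2 fold change was 0.57 and the limma adjusted p 0.0279. The authors' deposited table gave a ratio of 1.57 and a q-value of 0.000707, and its mark of significance, which went with at least a 2-fold change, was set for none of the 9 enzymes.

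Agpat3 held 32.2, 36.3, 33.7, 34.9 and 34.1 FPKM in labelled knockdown livers 1 to 5, against 36.9, 35.0, 36.9, 32.6 and 35.2 FPKM in control livers 1 to 5. The groups overlapped, and the coefficient of variation was small in both, at 4.37% in the labelled knockdown livers and 4.99% in the control livers. The log2 fold change of -0.04 (95% confidence interval -0.19 to 0.10, limma adjusted p = 0.673) turned to 0.0008 with median-of-ratios scaling and to 0.04 with the length trend removed. The within-library log2 difference of Agpat2 minus Agpat3 averaged 1.904 ± 0.25 in the labelled knockdown livers and 1.21 ± 0.26 in the control livers, with no overlap (exact two-sided permutation p = 0.00794, 0.0159 adjusted over the 4 pairs). With the length trend removed, the excess of 0.70 in the labelled knockdown livers became 0.53. The exact permutation p was then 0.0238, not adjusted over the pairs, in a setting chosen for the pairs after seeing the data. The longest transcripts have 1489 bases for Agpat2 and 5980 for Agpat3. Agpat2 made up 79.1 ± 2.85% of the summed FPKM of this pair in the labelled knockdown livers and 70.0 ± 3.90% in the control livers.

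**Figure D2:**
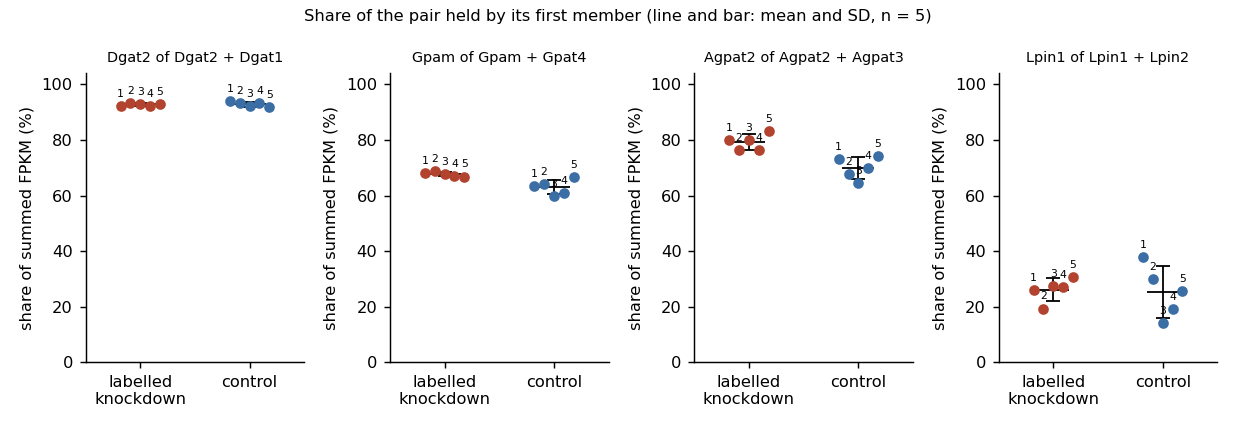
Each panel plots, for the 5 labelled knockdown livers (left, red) and the 5 control livers (right, blue), the percentage of the summed FPKM of a pair of enzymes of 1 reaction that its first member held, with mean and SD. Agpat2 holds 76.3 to 83.2% of its pair in the labelled knockdown livers and 64.7 to 74.3% in the control livers, Gpam 66.9 to 69.0% in the labelled knockdown livers and 59.9 to 66.6% in the control livers, and the groups overlap for Dgat2 and for Lpin1.

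The lipins Lpin1 and Lpin2 are phosphatidic acid phosphatases that move between the cytosol, the endoplasmic reticulum and the nucleus; Lpin1 also acts as a coactivator of transcription, and mice that lack it have little fat tissue and a transient fatty liver. Lpin1 held 7.87, 7.62, 8.03, 8.503 and 10.3 FPKM in labelled knockdown livers 1 to 5, against 13.3, 12.8, 4.94, 5.95 and 7.23 FPKM in control livers 1 to 5. The control livers fell apart into livers 1 and 2, above every labelled knockdown liver, and livers 3 to 5, below every one. The coefficient of variation was 12.7% in the labelled knockdown livers and 44.4% in the control livers, and the log2 fold change was 0.03 with a 95% confidence interval of -0.47 to 0.53 (limma adjusted p = 0.941), the widest of the 8 enzymes. Without 1 library at a time it lay between -0.13 and 0.19, and its sign depended on the library left out, as it did in 1 fit with weights for each library, at -0.0014. These data give no direction for Lpin1.

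Lpin2 held 22.4, 31.7, 21.2, 22.9 and 23.3 FPKM in labelled knockdown livers 1 to 5, against 21.7, 30.0, 30.0, 24.8 and 21.1 FPKM in control livers 1 to 5. Labelled knockdown 2 stood above the rest of its group and was the highest of all 10 livers. The log2 fold change was -0.07 (95% confidence interval -0.36 to 0.22, limma adjusted p = 0.755), and turned to 0.02 with the length trend removed. The log2 difference of Lpin1 minus Lpin2 averaged -1.41 ± 0.31 in the labelled knockdown livers and -1.51 ± 0.66 in the control livers (exact two-sided permutation p = 0.794, 0.841 adjusted over the 4 pairs), so a different change of the lipins was not detectable at this spread. Lpin1 made up 19.4 to 30.6% of the pair in the labelled knockdown livers and 14.2 to 38.0% in the control livers.

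The last step belongs to Dgat1 and Dgat2, enzymes of unrelated sequence that both join a fatty acid to diacylglycerol in the endoplasmic reticulum; Dgat2 is also found at lipid droplets. Dgat2 held 111, 129, 142, 122 and 133 FPKM in labelled knockdown livers 1 to 5, against 142, 124, 115, 114 and 117 FPKM in control livers 1 to 5. Control 1 stood apart from the other control livers and level with the highest labelled knockdown liver. Its log2 fold change was 0.06, with a 95% confidence interval of 0.906-fold to 1.20-fold (limma adjusted p = 0.687). Dgat1 held 9.20, 9.12, 10.8, 10.1 and 10.2 FPKM in labelled knockdown livers 1 to 5, against 9.03, 8.86, 9.61, 8.35 and 10.6 FPKM in control livers 1 to 5. The groups overlapped over most of their range, and the log2 fold change was 0.08, with a 95% confidence interval of 0.940-fold to 1.19-fold (limma adjusted p = 0.491).

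Dgat2 made up 92.8 ± 0.461% of the summed FPKM of this pair in the labelled knockdown livers and 92.9 ± 0.920% in the control livers. The log2 difference of Dgat2 minus Dgat1 averaged 3.56 ± 0.099 in the labelled knockdown livers and 3.58 ± 0.19 in the control livers (exact two-sided permutation p = 0.841). The sum of Dgat1 and Dgat2 was 120 to 153 FPKM in the labelled knockdown livers and 122 to 151 FPKM in the control livers.

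Mogat1, a monoacylglycerol acyltransferase of the alternative route, was listed at 0.0573, 0.0885, 0.233, 0.0995 and 0.170 FPKM in labelled knockdown livers 1 to 5, against 0.0306, 0.200, 0.417, 0.0801 and 0 FPKM in control livers 1 to 5. All 10 values lay below the filter of 0.5 FPKM, so it was not tested with the rest. In a fit with no filter its log2 fold change was -0.01 with a 95% confidence interval of -0.22 to 0.19, on a scale that compresses values this low. The file gives no counts, so what the 0 in control 5 allows is not known.

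**Figure D3:**
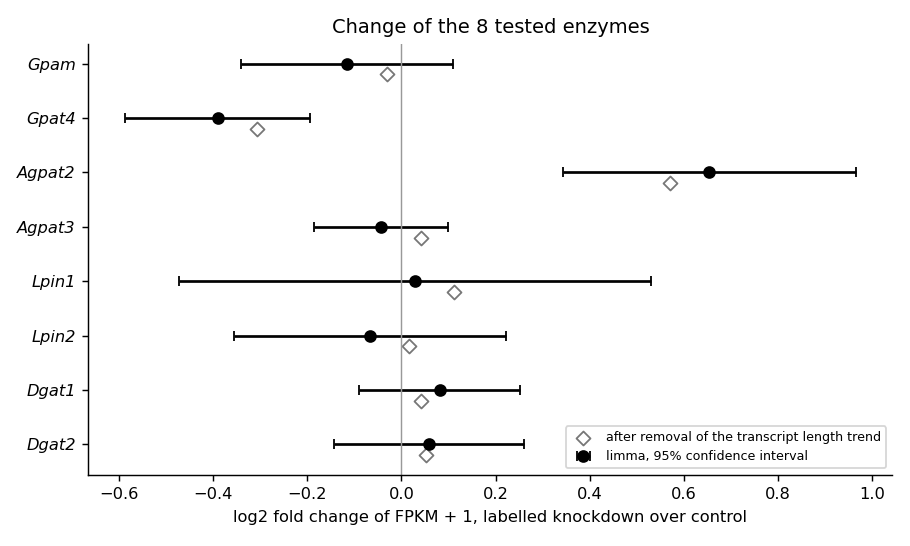
Points and bars give the log2 fold change of FPKM + 1 in the labelled knockdown livers over the control livers and its 95% confidence interval from limma, for the 8 tested enzymes in pathway order; open diamonds give the value after removal of each library's transcript length trend. Agpat2 (0.65) and Gpat4 (-0.39) are the 2 whose interval leaves out 0, and Lpin1 has the widest interval.

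Per transcript length, the order of the mean FPKM over all 10 livers was Dgat2 (125), Agpat2 (108), Agpat3 (34.8), Lpin2 (24.9), Gpam (23.4), Gpat4 (12.5), Dgat1 (9.59), Lpin1 (8.65) and Mogat1 (0.138). Only the means of the first pair changed order in the labelled knockdown livers, where Agpat2 averaged 132 FPKM and Dgat2 127 FPKM. In the control livers the means were 83.9 and 122 FPKM. Dgat2 stood above Agpat2 in 3 of 5 labelled knockdown livers and in 5 of 5 control livers. Lpin2 stood above Gpam in 6 of all 10 livers and Dgat1 above Lpin1 in 7, so these neighbours did not differ beyond their spread, and Gpat4 stood above Dgat1 in 9. The other neighbours kept their order in 10 of 10. Agpat2 and Agpat3 together made up 44.9 ± 2.86% of the FPKM of all 9 enzymes in the labelled knockdown livers and 36.7 ± 2.72% in the control livers, and Gpam and Gpat4 made up 8.96 ± 0.607% in the labelled knockdown livers and 11.96 ± 0.902% in the control livers. These shares are descriptions, since they follow from the values of Agpat2 and Gpat4 above.

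The genes whose profile over the 10 libraries was most like that of a changed enzyme were sought by the root mean square difference of standardized log2(FPKM + 1) values among 5510 tested genes that averaged 5 FPKM or more. For Agpat2 they were Rps16 (0.161), a protein of the small ribosomal subunit, Uba52rt (0.183), and Mrps34 (0.208), a protein of the mitochondrial ribosome. Rps16 averaged 183 ± 14.9 FPKM in the labelled knockdown livers and 146 ± 15.9 FPKM in the control livers. Rps16 and Uba52rt belong to families with near-identical copies, so their values are uncertain. For Gpat4 they included Ergic3 (0.189), a protein of transport between the endoplasmic reticulum and the Golgi, and Ndst1 (0.268), an enzyme of heparan sulfate synthesis. Ergic3 averaged 23.4 ± 1.67 FPKM in the labelled knockdown livers and 26.6 ± 0.420 FPKM in the control livers. It did not pass the test (limma adjusted p = 0.0841). Ndst1 averaged 13.2 ± 2.03 FPKM in the labelled knockdown livers and 18.1 ± 0.866 FPKM in the control livers. These genes were picked for their likeness and carry no test of it. The length trend, which moved with the groups, was not removed for this search, and its part in the likeness was not tested.

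The genes around the pathway were described by 6 lists of 103 symbols, of which 102 matched and 93 were tested. Of 14 tested relatives of the same reactions, such as the other acyltransferases, 2 were lower and 0 higher, where 9.65% of all tested genes were lower and 7.13% higher (median log2 fold change -0.095, beside -0.035 for all tested genes). Lpgat1, an acyltransferase of lysophospholipids and monoacylglycerol, fell to 11.8 ± 0.952 FPKM in the labelled knockdown livers, against 16.4 ± 1.35 FPKM in the control livers (log2 fold change -0.44, limma adjusted p = 0.00944). Lclat1, which acylates lysocardiolipin, fell to 7.31 ± 0.707 FPKM, against 9.59 ± 0.654 FPKM in the control livers (-0.35, 0.0167).

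Among 14 tested genes that supply glycerol-3-phosphate and acyl-CoA, 4 were lower and 0 higher, beside 9.65% lower and 7.13% higher among all tested genes (median -0.26). Acsl5, an acyl-CoA synthetase of mitochondria and the endoplasmic reticulum, fell to 38.2 ± 5.41 FPKM in the labelled knockdown livers, against 54.4 ± 5.55 FPKM in the control livers (log2 fold change -0.51, limma adjusted p = 0.0150). Acsl4, which prefers arachidonic acid, fell to 13.8 ± 2.77 FPKM, against 22.3 ± 4.76 FPKM in the control livers (-0.65, 0.0185). Slc27a4, a fatty acid transporter with acyl-CoA synthetase activity, and Gpd1l, a relative of glycerol-3-phosphate dehydrogenase, also fell (-0.30 and -0.25, limma adjusted p = 0.0296 and 0.0460). With 1 library left out, Slc27a4 stayed called in 3 of 10 fits and Gpd1l in 1, with adjusted p of up to 0.0684 and 0.103. With the length trend removed, 2 genes of the list were lower.

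Among 16 tested genes of other uses of phosphatidic acid and diacylglycerol, 3 were lower and 1 higher, beside 9.65% and 7.13% of all tested genes (median 0.016). Pcyt1a, the rate-limiting enzyme of phosphatidylcholine synthesis from choline, fell to 6.18 ± 0.635 FPKM in the labelled knockdown livers, against 9.09 ± 0.825 FPKM in the control livers (log2 fold change -0.49, limma adjusted p = 0.00941). Cds2, which turns phosphatidic acid into CDP-diacylglycerol, fell to 7.81 ± 0.837 FPKM, against 10.4 ± 0.637 FPKM in the control livers (-0.37, 0.0154), and the diacylglycerol kinase Dgkd fell as well (-0.29, 0.0228). Pemt, which makes phosphatidylcholine by methylation of phosphatidylethanolamine, rose to 172 ± 9.92 FPKM, against 137 ± 11.9 FPKM in the control livers (0.33, 0.0229). With 1 library left out, Dgkd stayed called in 7 of 10 fits and Pemt in 8, with adjusted p of up to 0.0594 and 0.0613, and with the length trend removed 0 genes of the list were higher.

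Of 14 tested genes of triglyceride hydrolysis, 1 was higher, the lipase inhibitor G0s2 (log2 fold change 1.92, limma adjusted p = 0.0139), and 1 lower, the lysosomal lipase Lipa (-0.61, 0.00944). Of 16 tested genes of triglyceride storage and export, 1 was higher and 3 were lower (median -0.15). Among all tested genes 7.13% were higher and 9.65% lower, and the hydrolysis list, at 1 and 1 of 14, lay near these shares. Apob, the structural protein of very-low-density lipoprotein, fell to 205 ± 19.0 FPKM in the labelled knockdown livers, against 299 ± 26.1 FPKM in the control livers (-0.54, 0.00941). Tm6sf2, which helps to load lipid onto that lipoprotein, rose to 22.9 ± 2.70 FPKM, against 15.6 ± 4.50 FPKM in the control livers (0.57, 0.0397). Cidec, a lipid droplet fusion protein, and Mia2, a protein of secretion from the endoplasmic reticulum, fell (-0.93 and -0.28, limma adjusted p = 0.0499 and 0.0300). With 1 library left out, Tm6sf2 stayed called in 4 of 10 fits, Cidec in 1 and Mia2 in 4, with adjusted p of up to 0.0892, 0.109 and 0.0724, and with the length trend removed 0 genes of the storage and export list were higher and 1 was lower.

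Of 19 tested regulators of the pathway, 1 was higher and 2 were lower (median 0.0012), close to the 16.8% called among all tested genes. Mlxipl, which encodes the carbohydrate-responsive transcription factor ChREBP, rose to 90.7 ± 17.9 FPKM in the labelled knockdown livers, against 47.4 ± 9.14 FPKM in the control livers (log2 fold change 0.92, limma adjusted p = 0.00944). Ppara, the nuclear receptor of fatty acid oxidation genes, fell to 4.90 ± 1.48 FPKM, against 8.88 ± 2.002 FPKM in the control livers (-0.75, 0.0224). Pparg, the related receptor of fat storage genes, fell to 4.41 ± 0.702 FPKM, against 6.23 ± 1.04 FPKM in the control livers (-0.41, 0.0397). With 1 library left out, Ppara stayed called in 8 of 10 fits and Pparg in 3, with adjusted p of up to 0.0545 and 0.0948.

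**Figure D4:**
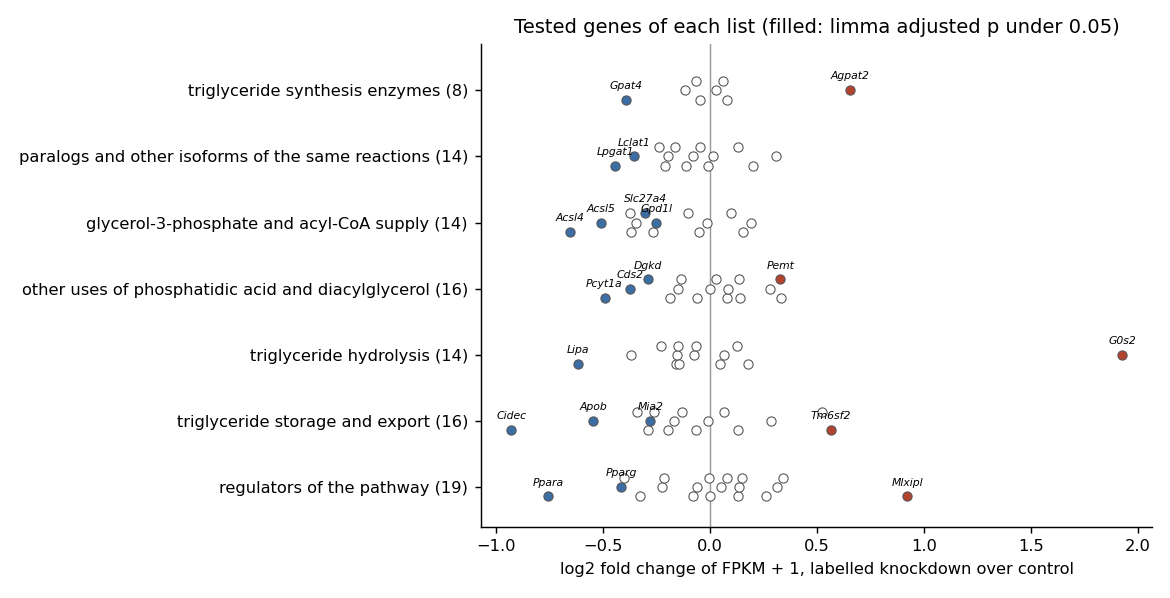
Each row plots the log2 fold change of FPKM + 1, labelled knockdown over control, of the tested genes of 1 list, whose number is in parentheses; filled points (red higher, blue lower) passed at a limma adjusted p under 0.05 and are named. Agpat2 (0.65) and Gpat4 (-0.39) lie on opposite sides of 0, and the supply list has 4 lower and 0 higher genes, beside 9.65% lower and 7.13% higher among all tested genes; 2 of the list were lower with the length trend removed or with the replicate block, and 1 with no filter on low values.

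Markers of the cell types in the samples were set beside the shares of all tested genes, 7.13% higher and 9.65% lower. All 10 hepatocyte markers were tested, with 2 higher and 3 lower, and their summed FPKM was 32930 to 41880 in the labelled knockdown livers and 36800 to 41210 in the control livers. Macrophage markers were lower in 2 of 9 tested, with all 9 below 0 in log2 fold change, and the 10 on the list summed to 153 to 413 FPKM in the labelled knockdown livers, against 350.1 to 576 in the control livers. Sums in the labelled knockdown livers against the control livers were 28.7 to 61.2 against 52.1 to 69.1 FPKM for 8 stellate cell markers (1 lower, 7 below 0 in log2 fold change) and 12.6 to 17.5 against 14.6 to 24.5 FPKM for 6 endothelial markers (1 lower, 5 below 0). They were 41.6 to 294 against 125 to 362 FPKM for 6 cholangiocyte markers and 1.72 to 5.60 against 2.63 to 4.24 FPKM for 6 lymphocyte markers, with 0 called in either list and 4 of 4 tested cholangiocyte and 1 of 2 tested lymphocyte markers below 0. Spp1, which is on the macrophage and cholangiocyte lists, was the highest gene of both. None of these marker genes was at 0 in every library. The 5 adipocyte markers found summed to 16.3 to 28.1 FPKM in the labelled knockdown livers and 19.5 to 35.7 FPKM in the control livers, with 1 of 3 tested higher and Adipoq and Cfd below 0.5 FPKM in all libraries, and 4 skeletal muscle markers summed to at most 0.126 FPKM. In whole liver, fewer cells of a type and less RNA per cell cannot be told apart, and the part of these markers in the changes of Agpat2 and Gpat4 was not tested.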

How the data were processed

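RNA was sequenced from 5 liver samples of mice given AAV8-TBG-galectin-3 and 5 of mice given AAV8-NC. Libraries were made from RNA purified on oligo(dT) and marked for strand with dUTP, per the labels' protocols. Cutadapt 1.9, HISAT2 2.0.4 and StringTie 1.3.4d are named in the submitters' processing notes. Those notes give the human build GRCh38, while the deposited identifiers are of mouse genes, so the authors' mouse build is not known, and positions here are those of GENCODE M21 (GRCm38), matched by identifier. The authors deposited FPKM per library, per the file headers. The authors' deposited comparison held a fold ratio, its log2 value, a p-value and a q-value from a test not given in the sources used here; its mark of significance went with a fold of at least 2. Groups and replicate numbers came from the titles, 0 columns of sample values were left out, and 0 pairs of libraries were identical.

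Values were taken as log2(FPKM + 1), which understates the change of low genes. Genes with at least 0.5 FPKM in at least 5 libraries were kept, and limma 3.58.1 in R 4.3.3 was run with a mean-variance trend, two-sided p and Benjamini-Hochberg adjustment over the 13471 genes. The length trend was removed library by library, by subtracting a natural spline (4 degrees of freedom) of log2 length, the longest GENCODE transcript, fitted to the departures from the gene means, for 97.9% of tested genes. Steps between low FPKM values gave 15.5 to 19.3 M fragments per library, but 12.2 to 14.4% of low values were whole multiples within 0.02, so reads were not recovered and depth is uncertain; precision is given by the spread of the 5 samples of a group. The fit was tested on simulated data. Alternatives were other pseudocounts, filters, scalings, variance settings, array weights, removal of the length trend, the replicate block and each library left out in turn. Pairs of enzymes were compared by exact permutation of the labels on log2 differences within a library.

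The 9 enzymes, the 6 pathway lists and the 8 marker lists were chosen with earlier results of these data known. The genes named are the 9 enzymes, Lgals3, up to 4 called genes of each pathway list by adjusted p, and the 3 genes most like each called enzyme (1 of them is not reported here), leaving out symbols of Gm and digits, Rik symbols and unnamed genes.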

Additional observations from a re-analysis of the deposited data

Results flagged for a closer look

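Within each group of 5 libraries, the gap of the most distant value to its neighbour was set against the range of the group. In 2 of 66 groups of values, the most distant value stood far from the rest. That share is below the about 1 in 20 that chance gives. Lpin2 was at 31.7 FPKM in labelled knockdown 2, where the other labelled knockdown livers held 21.2 to 23.3 FPKM. Acsl4 was at 30.7 FPKM in control 5, where the other control livers held 19.0 to 21.4 FPKM.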

How the results depend on the processing

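The Agpat2 call held in all 11 alternative settings (adjusted p 0.0039 to 0.041), and the Gpat4 call in 9 of 11, with counts of 1 enzyme higher and 1 lower. The exceptions were removal of the length trend (log2 fold change -0.31, adjusted p 0.057) and that removal with the replicate block (-0.31, 0.074), chosen after seeing the data, with 0 enzymes lower. With median-of-ratios scaling the Gpat4 call held only narrowly (log2 fold change -0.35, limma adjusted p 0.0494). Same-numbered libraries of both groups had correlations of -0.015 to 0.11, and 2 of 5 labelled knockdown libraries correlated best with their own number, so the numbers were not taken to pair the samples; the replicate block alone kept both calls and gave 769 higher and 986 lower genes. The count of all genes was 511 higher and 682 lower with no filter, 658 and 803 without the length trend, 489 and 653 without it and with the block, 2047 lower with array weights, and 1872 and 2635 at an unadjusted p under 0.05; it was 440 to 954 higher and 533 to 1733 lower without 1 library.
Signs that turned belong to changes that were not called: Agpat3 (0.00076 with median-of-ratios scaling, 0.041 without the length trend), Lpin1 (-0.0014 with array weights, -0.13 to 0.19 without 1 library), Lpin2 (0.017 without the length trend), Lgals3 (-0.016 without it, -0.093 to 0.26 without 1 library), Dgat2 minus Dgat1 (0.012 without it, chosen after seeing the data, -0.082 to 0.0405 without 1 library) and Lpin1 minus Lpin2 (-0.12 to 0.31 without 1 library). Gpam minus Gpat4 lay at 0.23 to 0.33 and Agpat2 minus Agpat3 at 0.61 to 0.77 without 1 library.
Counts of the pathway lists, small throughout, moved as follows. Relatives: 1 lower without the length trend and with the block. Supply: 1 lower with no filter, 2 without the length trend, 2 with the block, 1 with both, 2 to 3 without 1 library. Other uses: 2 higher with an FPKM minimum of 1, median-of-ratios scaling, no variance trend, array weights or unadjusted p, 0 without the length trend, with the block or with both, 0 to 2 without 1 library; 1 lower with both. Hydrolysis: 2 lower with array weights, the block, both, or unadjusted p, 1 to 2 without 1 library. Storage and export: 0 higher with no filter or without the length trend, 3 with unadjusted p, 0 to 1 without 1 library; 1 lower with median-of-ratios scaling, without the length trend or with the block, 1 to 3 without 1 library. Regulators: 2 higher with array weights or unadjusted p, 1 to 2 without 1 library; 0 lower with no filter, 4 with array weights, 1 without the length trend and with the block, 5 with unadjusted p, 0 to 2 without 1 library. The causes were not tested. FPKM gives no counts, so the depth limit of Mogat1 is unknown.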
